A study of Homo sapiens with 13 samples.

Results

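The transcripts described here are those of 7 genes of prostaglandin production, sensing and breakdown, out of 11963 genes named on the arrays. They are PTGS2, PTGS1, PTGES, PLA2G4A, PTGER2, PTGER4 and HPGD, chosen by gene symbol. Their 14 probe sets were found through the platform annotation, and each gene was represented by the probe set with the highest mean over the 13 arrays. RNA came from MCF10A, a spontaneously immortalized, non-cancerous human mammary epithelial line that needs added growth factors. All cells, the unstimulated ones included, had been deprived of serum for 24 h. Stimulation was with EGF or with the serum mixture for 20, 40, 60, 120, 240 or 480 min, at 1 array per stimulus and time, beside 1 array of unstimulated cells. In this medium "serum" stands for heat-inactivated horse serum with insulin, cholera toxin and hydrocortisone, and the cells are normally grown with EGF as well. No array had a replicate and the unstimulated state was sampled only at the start, so time in culture and stimulation cannot be told apart.

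Prostaglandins are short-lived lipid signals made from arachidonic acid. Cytosolic phospholipase A2 (PLA2G4A) frees arachidonic acid from membranes. A cyclooxygenase (PTGS1, mostly constitutive, or PTGS2, the inducible form known as COX-2) turns it into prostaglandin H2, and the microsomal synthase PTGES converts this to prostaglandin E2. Prostaglandin E2 acts through receptors that include EP2 (PTGER2) and EP4 (PTGER4), both of which raise cyclic AMP, and the dehydrogenase HPGD inactivates it. PTGS2 is a classical immediate early gene in epithelial cells and fibroblasts, its transcript is unstable, and glucocorticoids are known to lower it.

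The start-site-proximal sequences of PTGS2 and PTGER4 are shown because these were the members with large early rises, and that of PLA2G4A because it lies near PTGS2 on chromosome 1 and had no such rise. Each line gives the 250 bases upstream of the RefSeq start site (GRCh38.p14), 5′ to 3′ on the strand of the gene, with motif matches in capitals. PTGS2 lies on the minus strand at chr1:186680424-186680673, PTGER4 on the plus strand at chr5:40679665-40679914 and PLA2G4A on the plus strand at chr1:186828699-186828948.
PTGS2: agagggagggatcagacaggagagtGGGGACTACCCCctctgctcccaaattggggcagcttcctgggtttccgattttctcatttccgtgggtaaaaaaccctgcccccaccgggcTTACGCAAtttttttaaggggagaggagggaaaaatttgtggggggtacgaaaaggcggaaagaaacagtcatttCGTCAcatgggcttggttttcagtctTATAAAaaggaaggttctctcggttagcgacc
PTGER4: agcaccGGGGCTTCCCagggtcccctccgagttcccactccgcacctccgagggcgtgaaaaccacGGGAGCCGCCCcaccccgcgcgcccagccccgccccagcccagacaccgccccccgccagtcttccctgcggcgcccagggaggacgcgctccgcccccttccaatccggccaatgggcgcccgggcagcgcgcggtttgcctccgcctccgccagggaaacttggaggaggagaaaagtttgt
PLA2G4A: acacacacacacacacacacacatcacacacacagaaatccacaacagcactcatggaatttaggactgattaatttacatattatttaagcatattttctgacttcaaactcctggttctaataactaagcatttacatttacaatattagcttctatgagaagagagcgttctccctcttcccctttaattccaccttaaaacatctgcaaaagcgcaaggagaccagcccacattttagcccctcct
The motifs were searched on both strands: the CRE half-site TGACG, the C/EBP-type TTNNGNAA, the NF-kB-type (3 G, 5 of any base, 2 C), the TATA box TATAAA, the AP-1-type TGANTCA and the EGR-type GCGNGGGCG. The PTGS2 window held a TATA box beginning 32 bases before the start site, a CRE half-site beginning 58 bases before it and a C/EBP-type match farther upstream. It also held 3 overlapping NF-kB-type matches, the first beginning 225 bases before the start site, and no AP-1-type or EGR-type match. The PTGER4 window held 3 NF-kB-type matches, of which 2 overlapped, and 0 matches of the other motifs, and the PLA2G4A window held 0 matches of any of them. Windows of members without a large early rise held matches too. That of PTGES held an NF-kB-type and an EGR-type match, and both windows of PTGS1 held NF-kB-type matches. The PTGER2 window and 1 of the HPGD windows also held NF-kB-type matches. The motifs thus did not separate the members that rose from the others. Among 35114 RefSeq windows of this length, 10.7% held the TATA box, 21.2% the CRE half-site, 33.2% the C/EBP-type, 54.4% the NF-kB-type, 6.57% the AP-1-type and 8.41% the EGR-type motif. A match describes letters only. PTGS2 and PLA2G4A are 148.5 kb apart on chromosome 1, with PACERR annotated between them, and PTGER4 lies on chromosome 5.

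Values are MAS5 signals, a linear brightness per probe set, and differences are on the log2(signal + 6) scale after quantile normalization. The added 6 understates changes of dim genes. With 13 arrays, precision is limited by their number. Signals under 20 made up 33.3% of the serum array of 20 min and 36.8% to 40.0% of the other arrays. The EGF array of 20 min is called 40 min in its description, and its title was used. The basal keratins KRT5 and KRT14 had signals of at least 3823 and 4863 on every array, while the luminal keratin KRT19 (median 0.9) and the hormone receptors ESR1 (median 15) and PGR (median 2) were at or near background. The other 5 of 8 luminal markers were clearly measured on every array, with medians of 3015 for KRT18, 597 for KRT8, 590 for MUC1, 508 for EPCAM and 171 for GATA3. Of 6 measured macrophage markers, 4 had medians under 20, among them the leukocyte antigen PTPRC (median 7.2). CD14 (median 186.9) and CSF1R (median 55.2) were above 20 on every array. The macrophage list summed to 231 unstimulated, 171 to 335.1 after EGF and 165.6 to 392.2 after serum. The lists of endothelium and mast cells had medians under 20 for 5 of 5 and 4 of 4 measured genes, and that of fibroblasts for 4 of 7. The brighter fibroblast genes were DCN (median 277.7), COL1A1 (38.7) and PDGFRB (26.2). In such bulk RNA, fewer cells of a type and less RNA per cell cannot be told apart.

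Of the 7 genes, 5 were bright enough to be tested, and PTGER2 and HPGD were not. Tests were fitted over all 7731 genes kept, and 3 of the 55 member tests (5 genes in 11 comparisons) passed an adjusted p of 0.05: PTGS2 at 40 and at 60 min, both higher than unstimulated, and PLA2G4A, lower late than early. In the response comparisons the EGF and serum arrays of a time stood as 2 samples of that time against the unstimulated array. Each fit held terms for time and for stimulus, so its residual spread was how far the EGF-serum difference varied between times. The lone unstimulated array added nothing to that spread, so the p-values carry no estimate of how unstimulated cells vary. In the late-minus-early comparisons the times of a phase stood in for replicates within each stimulus. Their SE and p-values thus rest on variation between times within a phase and carry no estimate of variation between cultures.

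PTGS2 rose at 40 and 60 min over both stimuli, was highest at 60 min with each, and lay above its starting signal on every later array. The unstimulated signal was 35.2. After EGF the signals were 74.6 at 20 min, 243.5 at 40, 248.7 at 60, 185.9 at 120, 77.8 at 240 and 59.3 at 480 min. After serum they were 103.8, 407.4, 494.9, 284.5, 73.5 and 52.4 at the same times. The unstimulated array was thus the lowest of the 13 and serum at 60 min the highest, and every stimulated array lay above it. From high to low the order was serum 60, serum 40, serum 120, EGF 60, EGF 40, EGF 120, serum 20, EGF 240, EGF 20, serum 240, EGF 480 and serum 480 min. EGF at 60 and 40 min were neighbours at nearly the same signal, and without replicates it was not measurable whether such neighbours differ. The range of PTGS2 over the arrays, 3.75 on the log2 scale, ranked 12 among the 7731 genes, whose median range was 0.83.

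**Figure D1:**
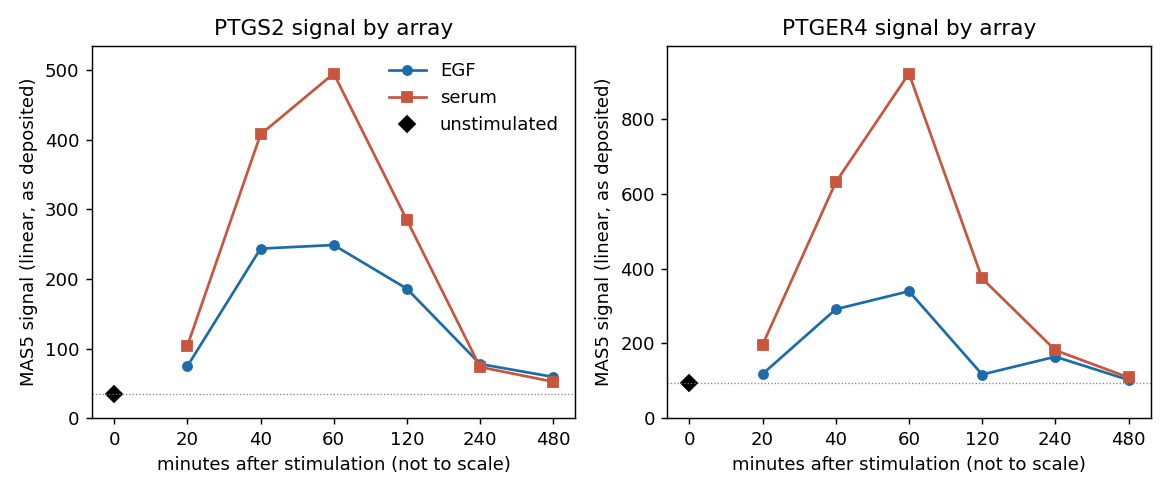
MAS5 signal (linear, as deposited) of PTGS2, left, and PTGER4, right, against minutes after stimulation, evenly spaced and not to scale. Each point is 1 array (black diamond and dotted line unstimulated, blue circles EGF, red squares serum); both genes are highest on the serum array of 60 min, at 494.9 and 922.2, and serum lies above EGF from 20 to 120 min.

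On single arrays the normalized level of PTGS2 was 6.75-fold the unstimulated one after EGF at 60 min and 13.4-fold after serum at 60 min. Averaged over both stimuli, PTGS2 was 3.10 above unstimulated at 40 min (SE 0.32, 8.59-fold, limma adjusted p = 0.0237). At 60 min it was 3.25 above (SE 0.32, 9.52-fold, limma adjusted p = 0.0168). Of all genes tested, 0.0776% were called at 40 min and 0.0776% at 60 min. The value was already 1.28 at 20 min (SE 0.32, limma adjusted p = 0.635). It was 2.65 at 120 min (SE 0.32, 6.27-fold, limma adjusted p = 0.0669), where 0.0259% of genes were called. The later values were 1.15 at 240 min (SE 0.32, adjusted p = 0.348) and 0.78 at 480 min (SE 0.32, adjusted p = 0.41). The lone unstimulated array enters every one of these values.

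The PTGS2 values at 40 and 60 min stayed between 2.62 and 3.58 over the alternatives, but the calls did not hold throughout. The 40 min call ended without EGF or serum at 20 min (adjusted p = 0.0805), EGF at 40 min (0.131), serum at 40 min (0.161) or either array of 120 min (0.0588), and with no filter on dim genes (0.0903), over a range of 5.7e-05 to 0.161. The 60 min call ended without either array of 20 min (limma adjusted p = 0.0541) and without both. It also ended without serum at 60 min (0.0821) and with no filter (0.0663), over a range of 3.11e-05 to 0.0821. At 120 min a call was gained with 4 times the offset (0.039) and with a variance trend (0.000621), over a range of 0.000621 to 0.238.

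PTGS1, the constitutive cyclooxygenase, was dim, and its early signals lay on both sides of the unstimulated one. Its signals ran from 43.4 to 86.6 with a median of 63.4, and 53.2 was the unstimulated signal. After EGF the signals were 63.4, 57.0, 43.4, 71.1, 50.3 and 78.9 in order of time, and after serum 50.7, 45.9, 65.4, 68.0, 86.6 and 69.3. The early and late arrays overlapped after EGF, while after serum all 3 late arrays lay above all 3 early ones. How common such a separation is among all genes is not given here. PTGS1 was 0.40 higher late (120 to 480 min) than early (20 to 60 min) over both stimuli (SE 0.14, limma adjusted p = 0.113), in a comparison that called 3.47% of genes. A probe set of similar brightness gave 0.11 for that difference (SE 0.12, limma adjusted p = 0.649). The 2 probe sets followed each other weakly over the 13 arrays (r = 0.208).

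PLA2G4A, the phospholipase that supplies the cyclooxygenases, was measured clearly and was lower late than early. Its unstimulated signal was 179.4. After EGF the signals were 169.6, 193.1, 176.1, 126.8, 168.0 and 131.4 in order of time, and after serum 219.9, 231.1, 197.5, 154.8, 152.3 and 159.4. On the normalized scale all 6 late arrays (7.06 to 7.43) lay below all 6 early ones (7.47 to 7.90), and the unstimulated array (7.48) lay at the lower edge of the early range. How common such a separation is among all genes is not given here. The late-minus-early difference was -0.40 (SE 0.08, 1.32-fold, limma adjusted p = 0.0335), with -0.35 after EGF (SE 0.12, adjusted p = 0.231) and -0.44 after serum (SE 0.12, adjusted p = 0.0837). Of all genes tested 1.79% were called lower in this comparison. The SEs and p-values of these differences rest on the spread of times within a phase, not on repeated cultures. Against the unstimulated array PLA2G4A had its highest value at 40 min (0.30, SE 0.18, adjusted p = 0.815) and its lowest at 120 min (-0.28, SE 0.18, adjusted p = 0.691).

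The call of PLA2G4A rested on single arrays. It ended without EGF at 20 (adjusted p = 0.0548), 40 (0.085) or 480 min (0.0791), without serum at 20 (0.0632), 40 (0.0878), 240 (0.0726) or 480 min (0.0525), without both arrays of 20 min (0.0917), with time as a factor (0.057) and with no filter on dim genes (0.0874), over a range of 0.017 to 0.0917.

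PTGES, the inducible prostaglandin E2 synthase, was already bright before stimulation, and its values moved little (range over the arrays 0.65, against 3.75 for PTGS2, on the log2 scale). Its unstimulated signal was 1865. After EGF the signals were 2317, 2255, 1966, 1835, 1585 and 1634 in order of time. After serum they were 2013, 2024, 1849.7, 2402, 2308 and 2653. On this probe set all 3 late EGF arrays lay below the 3 early EGF arrays, and all 3 late serum arrays lay above the 3 early serum arrays. The share of all genes that separate in this way is not given here, so such an order is a description only. Late minus early was -0.32 after EGF (SE 0.11, limma adjusted p = 0.231) and 0.26 after serum (SE 0.11, adjusted p = 0.219). These comparisons called 0.259% and 1.33% of genes. The difference between the stimuli in this change, the interaction, was -0.58 (SE 0.14, 1.49-fold, limma adjusted p = 0.283), where 0.0259% of genes were called. It was called with a variance trend and robust variances (adjusted p = 0.00845), over a range of 0.00845 to 0.716.

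The other probe set of PTGES did not share the late rise after serum. Its signals were 673.0 unstimulated, 864.9, 972.7, 966.1, 798.0, 709.8 and 589.0 after EGF, and 784.1, 760.6, 852.9, 622.1, 750.5 and 751.5 after serum. After EGF both probe sets had late arrays below early ones. After serum the other probe set was at -0.18 late minus early (SE 0.13, adjusted p = 0.477), and its interaction was -0.24 (SE 0.22, adjusted p = 0.716). The 2 probe sets correlated at r = 0.181 over the 13 arrays.

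**Figure D2:**
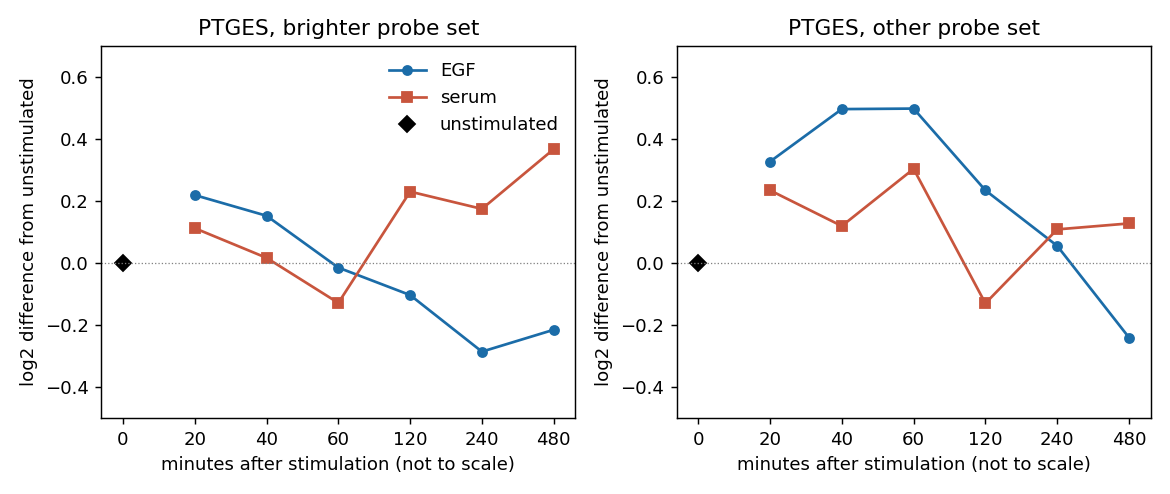
PTGES as the log2 difference from the unstimulated array (black diamond, dotted line at 0) against minutes after stimulation, evenly spaced and not to scale, for the brighter probe set, left, and the other probe set, right. Each point is 1 array (blue circles EGF, red squares serum); on the left EGF ends at -0.21 and serum at 0.37 at 480 min, and on the right at -0.24 and 0.13.

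PTGER4, the EP4 receptor of prostaglandin E2, had its highest signals at 40 and 60 min as PTGS2 did, and lay higher after serum than after EGF at every time. Its unstimulated signal was 94.7. After EGF the signals were 118.3, 291.6, 339.8, 117.0, 164.6 and 102.5 in order of time. After serum they were 196.5, 631.4, 922.2, 373.9, 181.9 and 109.0. The unstimulated array was again the lowest of the 13 and serum at 60 min the highest. Both series were close to the starting level at 480 min. At 120 min the EGF array was at 1.29-fold of the unstimulated level while serum was at 4.05-fold, and PTGS2 was at 5.05-fold and 7.78-fold on the same arrays.

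PTGER4 averaged 2.20 above unstimulated at 40 min (SE 0.45, 4.59-fold, limma adjusted p = 0.285) and 2.57 above at 60 min (SE 0.45, 5.93-fold, limma adjusted p = 0.171). It ranked 12 and 7 by size among the 7731 genes at these times, and with its SE it was not past the threshold. With a variance trend the 60 min value was called (adjusted p = 0.0345), over a range of 0.0345 to 0.55. It was at 0.74 at 20 min (SE 0.45, adjusted p = 0.964), 1.19 at 120 min (SE 0.45, adjusted p = 0.481), 0.92 at 240 min (SE 0.45, adjusted p = 0.554) and 0.26 at 480 min (SE 0.45, adjusted p = 0.859). The dim other probe set of PTGER4 had signals of 17.8 to 53.4 on the 4 arrays of 40 and 60 min and 1.7 to 12 on the other 9.

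PTGER2, the EP2 receptor, and HPGD, which inactivates prostaglandins, were at or near background. PTGER2 signals ran from 2.4 to 27.5 with a median of 18.8, and 8 of 13 arrays were under 20. It was 26.7 unstimulated, 27.5, 20.3, 2.4, 3.7, 11 and 14.6 after EGF, and 22.3, 14.3, 18.8, 16.8, 18.8 and 24.1 after serum. The lowest arrays were EGF at 60 and 120 min, at signals too low to be ordered. HPGD signals ran from 1.9 to 27.7 with a median of 11.7, with 12 of 13 arrays under 20, and its 3 other probe sets stayed under 20 on all 13 arrays. Without the filter on dim genes 0 of their 22 tests were called by limma, the lowest adjusted p being 0.458. A change of either transcript at such signals was not detectable.

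**Figure D3:**
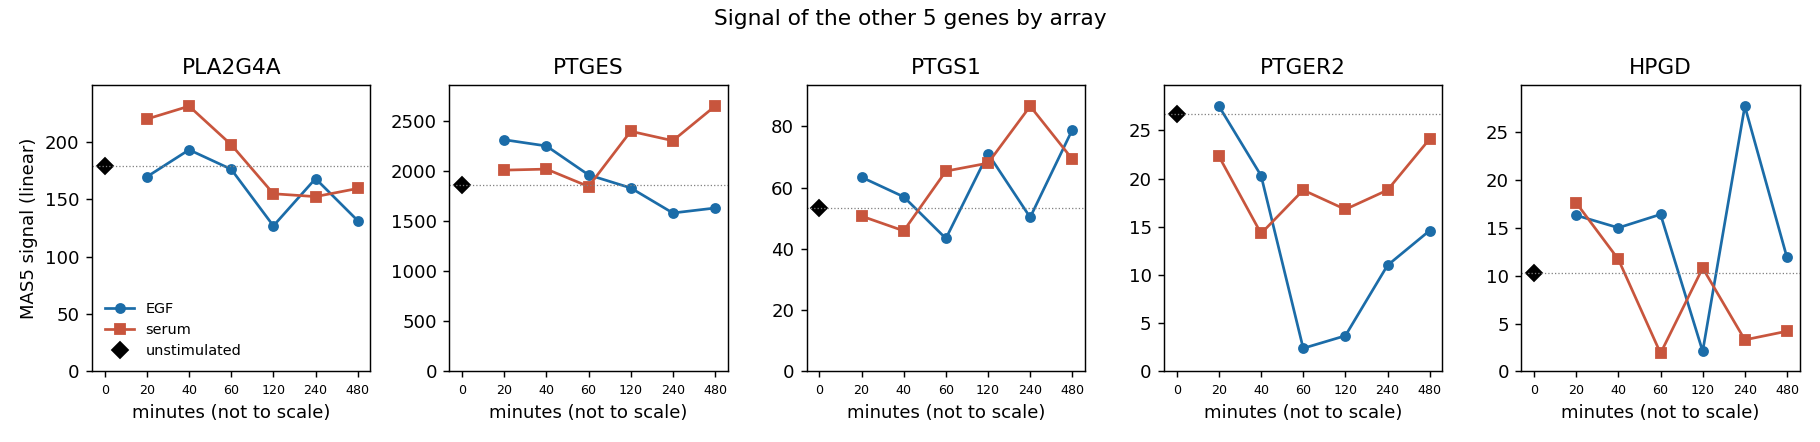
MAS5 signal (linear, each panel with its own axis from 0) of PLA2G4A, PTGES, PTGS1, PTGER2 and HPGD against minutes after stimulation, evenly spaced and not to scale. Each point is 1 array (black diamond and dotted line unstimulated, blue circles EGF, red squares serum); PLA2G4A is lower from 120 min on, the PTGES series part after 60 min, and PTGER2 and HPGD stay at or under 27.7.

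Late minus early, PTGS2 and PTGER4 had the largest values of the tested members, with the widest errors. These errors take in the rise and fall of each gene within a phase, as times stood in for replicates. PTGS2 was at -1.02 over both stimuli (SE 0.53, limma adjusted p = 0.265), with -0.75 after EGF (SE 0.74, adjusted p = 0.677) and -1.28 after serum (SE 0.74, adjusted p = 0.369). With 1 array left out the PTGS2 value after EGF ran from -1.31 (without 20 min) to -0.44 (without 480 min), and that after serum from -1.99 (without 20 min) to -0.84 (without 480 min). PTGER4 was at -1.04 (SE 0.41, adjusted p = 0.159), with -0.84 after EGF (SE 0.59, adjusted p = 0.527) and -1.24 after serum (SE 0.59, adjusted p = 0.264). For both genes early and late arrays overlapped after each stimulus. With time as a factor PTGS2 was called at the same size (adjusted p = 0.0287), over a range of 0.0287 to 0.433. Without both arrays of 20 min its value was -1.65 and that of PTGER4 -1.59.

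On the arrays of 20 to 120 min the levels of PTGS2 and PTGER4 were higher after serum than after EGF, and the later pairs were closer. For PTGS2, EGF minus serum was -0.39 at 20 min, -0.72 at 40, -0.99 at 60 and -0.62 at 120 min, and then 0.02 at 240 and 0.09 at 480 min. The serum level was thus 1.99-fold the EGF level at 60 min, and EGF was lower in 4 of 6 pairs. Over the 6 times the difference was -0.43 (SE 0.15, limma adjusted p = 0.181). For PTGER4 the same differences were -0.68, -1.06, -1.42, -1.65, -0.18 and -0.15 in order of time. EGF was lower in 6 of 6 pairs, with the widest gap at 120 min, where serum was 3.13-fold the EGF level. The share of all genes lower in every pair is not given here. Over the 6 times PTGER4 was at -0.86 (SE 0.21, 1.81-fold, limma adjusted p = 0.102). Its dim other probe set gave -0.41 (SE 0.22, limma adjusted p = 0.342). This comparison called 0.129% of genes. The PTGER4 difference was called with a variance trend (adjusted p = 0.0391), over a range of 0.0391 to 0.342.

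PLA2G4A was lower after EGF in 5 of 6 pairs, at -0.22 (SE 0.08, limma adjusted p = 0.208). PTGES was lower in 3 of 6, at -0.17 (SE 0.12, adjusted p = 0.471), and PTGS1 in 2 of 6, at -0.08 (SE 0.17, adjusted p = 0.824). The change of the EGF-serum gap from early to late was 0.53 for PTGS2 (SE 0.25, adjusted p = 0.486) and 0.40 for PTGER4 (SE 0.43, adjusted p = 0.765). It was -0.24 for PTGS1 (SE 0.34, adjusted p = 0.825) and 0.09 for PLA2G4A (SE 0.17, adjusted p = 0.865). No member passed the threshold adjusted over all genes in either comparison. The values of PTGER4 in EGF minus serum and of PTGES in the interaction (-0.58, SE 0.14) were the largest relative to their SE, with unadjusted p of 0.00397 and 0.00432 in limma.

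**Figure D4:**
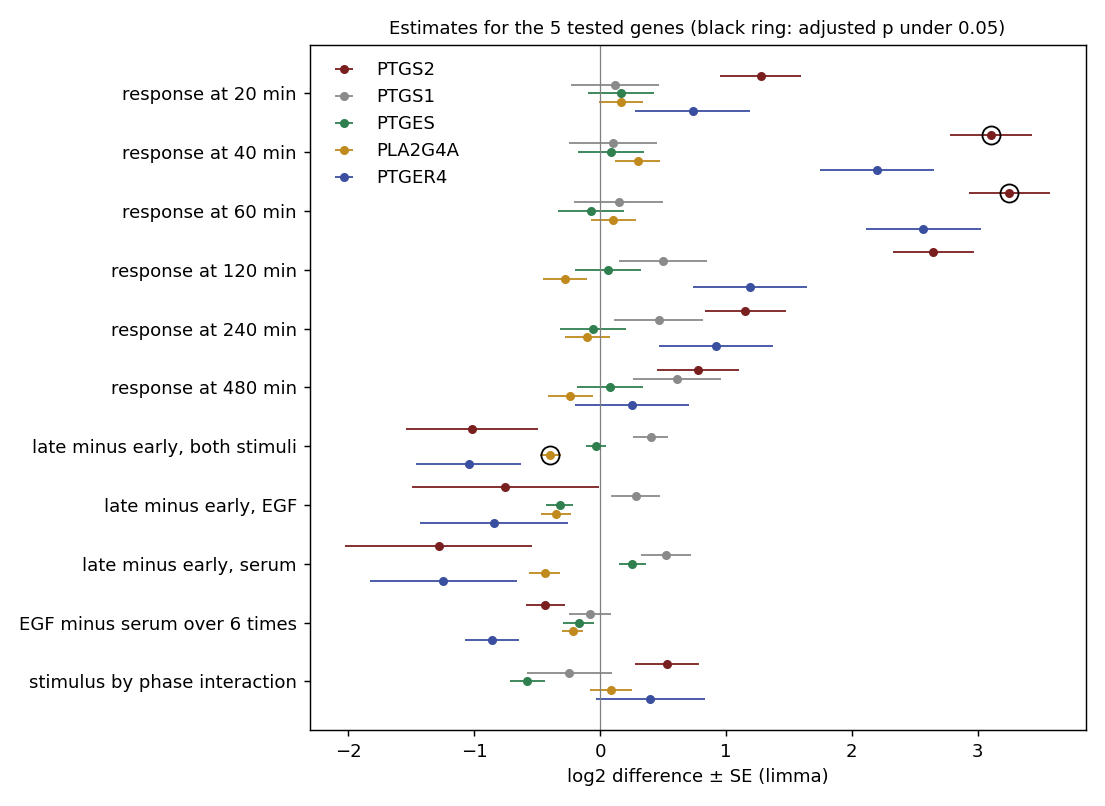
Estimated log2 difference (x axis) with its SE from limma for the 5 tested genes in each of the 11 comparisons (rows). Black rings mark the 3 values with an adjusted p under 0.05, PTGS2 at 40 and 60 min and PLA2G4A late minus early; the PTGS2 and PTGER4 responses rise to 3.25 and 2.57 at 60 min and decline after it.

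PTGS2 and PTGER4 had similar profiles over the arrays. Their Pearson correlation was 0.906 over the 13 arrays, 0.773 over the 6 EGF arrays and 0.981 over the 6 serum arrays, as a description of arrays that share an unstimulated sample and a time order. The EGF array of 120 min stood apart from the shared line, with PTGS2 still high and PTGER4 near its start. PTGER4 was number 7 in similarity to PTGS2 among the genes tested. The 5 most similar were TGIF1, a homeobox repressor (r = 0.95), the matrix-associated CCN2 (0.925), the AP-1 subunit JUN (0.922), CCN1 (0.916) and FILIP1L (0.915). For PTGER4 the 2 most similar were the NF-kB feedback inhibitor TNFAIP3 (0.944) and TGIF1 (0.915).

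The other tested members were less like PTGS2. It correlated at 0.39 with PLA2G4A, -0.09 with PTGES and -0.15 with PTGS1. The genes most like PLA2G4A were TSPAN6 (r = 0.919), DPAGT1 (0.905) and GLT8D1 (0.903). Those most like PTGES were APH1A (0.895), TLE1 (0.86) and USP24 (0.853), and those most like PTGS1 were SPHK1 (0.857), CLTB (0.835) and TGFB1I1 (0.832). Correlations of this size over 13 arrays, picked as the highest among the genes tested, are a description only.

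**Figure D5:**
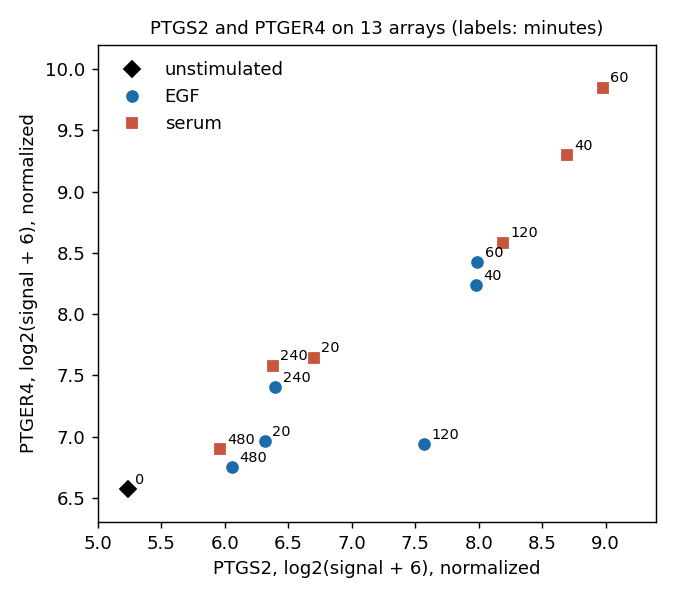
Normalized log2(signal + 6) of PTGER4 (y axis) against that of PTGS2 (x axis) on the 13 arrays, with minutes printed beside each point (black diamond unstimulated, blue circles EGF, red squares serum). The points rise together (r = 0.906), and EGF at 120 min lies off the shared line, with PTGS2 at 7.57 and PTGER4 at 6.94.

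Of 134 other genes in 9 lists, 113 were measured and 86 were bright enough to test. The other enzymes, receptors and transporters of the pathway did not pass the threshold in any of the 3 comparisons given here (60 min response, late minus early, EGF minus serum). Of 4 other tested prostanoid synthases 0 were higher and 0 lower in each, with medians of 0.18, 0.06 and 0.18 against -0.01, 0.02 and 0.01 over all genes. The carbonyl reductase CBR1, which can reduce prostaglandin E2, was at 0.50 in EGF minus serum (SE 0.08, 1.41-fold, limma adjusted p = 0.0538). PTGES2, another prostaglandin E synthase, was at 0.31 late minus early (SE 0.12, adjusted p = 0.147). Of 9 other phospholipases and inhibitors 0 were called either way, with medians of 0.04, 0.03 and -0.06, and the secreted phospholipase PLA2G12A was at -0.92 in EGF minus serum (SE 0.27, adjusted p = 0.136).

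Of 7 other measured prostanoid receptors 2 were bright enough to test, and 0 were called, with medians of -0.23, 0.12 and 0.06. PTGER1, the EP1 receptor, was at -0.86 at 60 min (SE 0.40, adjusted p = 0.694) and the thromboxane receptor TBXA2R at 0.39 (SE 0.45, adjusted p = 0.883). Of 6 transport and breakdown genes 0 were called, with medians of 0.12, -0.07 and 0.15. The prostaglandin transporter SLCO2A1 was at -0.62 in EGF minus serum (SE 0.26, adjusted p = 0.237) and the reductase AKR1C2 at 0.33 (SE 0.13, adjusted p = 0.212).

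Among known regulators of PTGS2 some immediate early factors changed. Of 24 tested transcription factors that are known to bind its promoter, 1 was higher at 60 min and 0 lower, with a median of 0.09, where 0.0776% of all genes were called. Late minus early 0 were higher and 5 lower, with a median of -0.15, where 1.79% of all genes were called lower. The factor that rose was EGR1, a zinc-finger immediate early protein (2.41, SE 0.21, 5.31-fold, limma adjusted p = 0.00877). The largest falls late were of the AP-1 subunits FOS (-2.58, SE 0.58, adjusted p = 0.0389) and FOSB (-2.58, SE 0.51, adjusted p = 0.0254), of EGR1 (-1.97, SE 0.32, adjusted p = 0.0165) and of the C/EBP factor CEBPD (-0.63, SE 0.14, adjusted p = 0.0362). FOSB was near background at 240 and 480 min (signals of 1.1 to 4.9), so the size of its fall is uncertain. In EGF minus serum 0 of the 24 were called, with a median of 0.16. These lists were chosen with results of these data known, so their counts are not independent evidence.

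Of 11 tested mRNA-binding proteins that act on the PTGS2 transcript, 0 were called in the 3 comparisons, with medians of -0.08 and 0.10 in the first and second and -0.003 in EGF minus serum. ZFP36, which binds AU-rich elements and speeds decay, was at 1.46 at 60 min (SE 0.29, 2.76-fold, limma adjusted p = 0.207) and at -0.81 late minus early (SE 0.21, adjusted p = 0.0591). A list drawn up for CREB and prostaglandin E2 response held 14 tested genes. It mixed responding genes with components of cyclic AMP signalling (GNAS, PRKAR1A, PRKACB, ADCY3, ADCY7 and ADCY9). Its medians therefore do not describe responding genes alone. Of the 14, 0 were higher or lower at 60 min (median 0.37), 1 was lower late and 2 were lower in EGF than in serum (medians -0.14 and -0.34). Over all genes, 1.79% were called lower late and 0.129% were called in EGF minus serum. The 2 were RGS2, which limits Gq-coupled receptor signals (-3.16, SE 0.30, 8.96-fold, limma adjusted p = 0.0154), and the phosphatase DUSP1 (-1.91, SE 0.16, 3.75-fold, adjusted p = 0.0102). The serum mixture also held cholera toxin and hydrocortisone. Which component lay behind these differences, and whether prostaglandin E2 had a part, was not tested. DUSP1 was also the gene lower late (-1.20, SE 0.12, adjusted p = 0.00393). The orphan receptor NR4A1 was at 2.37 at 60 min (SE 0.52, adjusted p = 0.273).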

How the data were processed

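Expression was measured on 13 Affymetrix arrays, and per the labels the deposited intensity is the MAS5 signal on a linear scale (its version is not given in the sources used here). Judged by their trimmed means of 150.04 to 150.05, the arrays had been scaled alike. Values were taken as log2(signal + 6) and quantile normalized (limma 3.58.1, R 4.3.3), and each gene kept its brightest probe set. Of 11963 genes with 1 symbol, 7731 were kept, those with a mean at or above the 40th percentile over probe sets. Symbols came from the platform annotation. The members and gene lists were chosen with earlier results of these data known.

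Fits used lmFit and eBayes, with Benjamini-Hochberg adjustment over the 7731 genes: time plus stimulus for responses (5 residual degrees of freedom), phase means for late minus early (8), and time as a block for EGF minus serum (5) and the interaction (4). Named beside the members were up to 4 called genes of each list per comparison, otherwise the 2 largest, and the genes most correlated with each member, of which 1 is not reported here. The fits were tested on simulated data. Alternatives were other offsets, no quantile normalization, no filter, a gene's probe sets averaged, robust variances with a trend, time as a factor and each array left out. Leaving out both arrays of 20 min and using other probe sets were added after seeing the data. Promoters came from RefSeq tables, and 7 of 7 members were matched. Figures used Python 3.11.15 and matplotlib 3.10.9.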

Additional observations from a re-analysis of the deposited data

Results flagged for a closer look

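On the brighter probe set of PTGES the late-minus-early change ran in opposite directions after EGF and after serum, with no overlap of the early and late arrays in either. How common such a separation is among all genes is not given here. The interaction was -0.58, and by limma it did not pass the threshold (adjusted p = 0.283, 0.00845 to 0.716 over the alternatives). The other probe set was at -0.42 after EGF and -0.18 after serum, with an interaction of -0.24 (limma adjusted p = 0.716).

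The second probe set of PTGER4, which the tests did not use, also had its highest signals on the arrays of 40 and 60 min, without passing the threshold (limma adjusted p = 0.342 and 0.207). At 60 min the smaller of its EGF and serum rises over the unstimulated array was 2.09 on the log2 scale, measured against an unstimulated signal of 3.0, which is near background, so its size is uncertain. It correlated with the brighter probe set at r = 0.845 over the 13 arrays, and its signal was under 20 on 10 of them.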

How the results depend on the processing

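Without replicates, a spread of only 4 to 8 residual degrees of freedom limits every call. Of 1114 values of the 5 tested members under alternatives, 1045 kept direction and call, 23 lost a call, 6 gained one and 40 changed sign, and the cause was not tested. The labels number no replicates, so no replicate block could be fitted, and EGF and serum arrays were paired by time only. For genes called over the whole table, the range with each array left out was 0 to 2 at 20 min, 1 to 6 at 40, 1 to 7 at 60, 1 to 2 at 120, and 0 at 240 and 480 min. It was 56 to 439 late minus early, 1 to 28 for EGF, 9 to 207 for serum, 1 to 29 for EGF minus serum and 0 to 2 for the interaction. A variance trend gave 5, 20, 28, 26, 35 and 46 at the 6 times, 657 late minus early (69 for EGF, 417 for serum), 426 for EGF minus serum and 70 for the interaction. With 4 times the offset there were 1 at 20 min, 6 at 120, 1 at 240 and 2 at 480 min, 199 for serum late minus early, 160 for EGF minus serum and 8 for the interaction. With no filter there were 0 at 20 min, 2 at 60 and 1 at 120 min, 67 late minus early (8 for EGF, 10 for serum), 1 for EGF minus serum and 0 for the interaction. No offset gave 6 for EGF minus serum and 0 for the interaction, no quantile normalization 1 for the interaction, and time as a factor 147 late minus early. The mean of probe sets gave 67 for serum late minus early, 6 for EGF minus serum and 1 for the interaction. Without both arrays of 20 min there were 3 at 40, 3 at 60 and 1 at 120 min, 71 late minus early (0 for EGF, 18 for serum), 29 for EGF minus serum and 0 for the interaction. In the main analysis the counts were 2, 6, 6, 2, 0 and 0 at the 6 times, 268, 20 and 103 late minus early, 10 and 2, and at 240 and 480 min 752 and 910 genes had an unadjusted p under 0.05 in limma.

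Signs changed only for uncalled values. Without quantile normalization PTGS1 was at -0.050 at 40 min, and PTGES at 0.032 at 60 and 0.036 at 240 min. With the mean of probe sets PTGES was at 0.16 at 60 and 0.013 at 240 min, and PTGS1 at 0.22 in EGF minus serum. Without both arrays of 20 min PTGES was at 0.022 late minus early. The other PTGES probe set gave 0.40 at 60, 0.082 at 240 and -0.056 at 480 min, -0.18 late minus early after serum and 0.10 in EGF minus serum. The dimmest PTGS1 probe set gave -0.24, -0.44 and -0.037 at 20, 40 and 60 min, 0.55 in EGF minus serum and 0.0077 for the interaction, and the third one -0.069 late minus early after EGF and 0.18 in EGF minus serum. The other PTGER4 probe set gave -0.12 at 20 and -0.047 at 120 min. With single arrays left out, PTGS1 ran from -0.21 to 0.44 at 20 min, -0.079 to 0.28 at 40, -0.14 to 0.44 at 60 min, -0.19 to 0.052 in EGF minus serum and -0.54 to 0.029 for the interaction. PTGES ran from -9.7e-05 to 0.33 at 20 min, -0.099 to 0.27 at 40, -0.24 to 0.099 at 60, -0.034 to 0.16 at 120, -0.23 to 0.12 at 240 and -0.17 to 0.32 at 480 min. PLA2G4A ran from -0.29 to 0.088 at 240 min and -0.045 to 0.17 for the interaction, and PTGER4 from -0.17 to 0.68 at 480 min.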

Other observations

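The leukotriene and lipoxygenase branch, which uses the same arachidonic acid, held 7 tested genes, and 0 were called in the 60 min response, late minus early or EGF minus serum. Their medians were 0.36, -0.19 and 0.01, against -0.01, 0.02 and 0.01 over all genes. At 60 min 6 of the 7 were above the unstimulated array, among them ALOX5, the first enzyme of leukotriene synthesis (1.46, SE 0.50, limma adjusted p = 0.584), whose signals were between 5.2 and 35.5 and so close to background. Late minus early 0 of the 7 were above 0, and ALOXE3, an epidermal lipoxygenase, was at -0.54 (SE 0.30, adjusted p = 0.308). The share of all genes above 0 is not given here, so these counts are a description only.

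The list of enzymes that return arachidonic acid to membranes or free it by other routes held 10 tested genes, with 0 called and medians of 0.14, -0.20 and -0.03. It also held the fatty acid desaturase FADS2 and the elongase ELOVL5, which do neither. Its medians therefore do not describe those enzymes alone. The acyl-CoA synthetases ACSL4 and ACSL1, of which ACSL4 prefers arachidonic acid, were at -0.63 (SE 0.14, limma adjusted p = 0.085) and -0.50 (SE 0.10, adjusted p = 0.0662) in EGF minus serum. Late minus early, the lipase MGLL was at 0.34 (SE 0.11, adjusted p = 0.0945).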
